A study of Mus musculus with 2 samples.

Results

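Conventional alpha-beta T cells were taken from single-cell RNA libraries of the Achilles tendon enthesis, the attachment of the tendon to bone. Barcodes entered with 300 genes or more and with mitochondrial genes making up no more than 20% of UMIs (unique transcript molecules). A kept cell was an alpha-beta T cell with at least 2 UMIs of Cd3d, Cd3e and Cd3g together, at least 1 UMI of Trac, fewer than 2 UMIs of Trdc and Tcrg-C1, 0 of Foxp3, and less than 0.5% of its UMIs from Col1a1, Col1a2 and Col3a1. This gave 827 of 25430 kept cells: 376 of 10947 in the non-tail suspension library and 451 of 14483 in the tail suspension library. The cells were thus chosen by their measured UMIs of these genes, whose values are given below as a description only.

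All animals were SKG mice, a strain with a point mutation in Zap70, the kinase that carries the T cell receptor signal, and prone to autoimmune arthritis and enthesitis. One group was kept without tail suspension and the other was held by the tail, which takes load off the hindlimbs. Each group had 1 library, and the number of animals per library, their age and sex and any arthritis-inducing agent are not given in the sources used here. Every mouse carried the SKG mutation, and mice with a normal Zap70 gene were not analysed here. The alpha-beta T cells held 2636362 and 2930219 UMIs in all, with medians of 2003.5 and 1739 genes per cell. No difference between the libraries has a replicate check, and all intervals below are at 95% and cover counting error only.

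An alpha-beta T cell reads peptides held by MHC molecules with a receptor built from the Trac chain and 1 of the Trbc1 or Trbc2 chains, coupled to the CD3 proteins. CD4 cells help other cells and can become interferon gamma producers (type 1) or interleukin-17 producers (type 17), while CD8 cells kill their targets. In entheses, interleukin-17 and interleukin-22 act on stromal and bone cells, and naive cells that pass through lymph nodes differ from cells that stay in tissue by receptors such as CCR7 and CXCR6.

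The cells carried markers of their label that the rule did not use, Trbc2 and Icos. Cd3e, which the rule counts and which is given as a description only, had a UMI in 91.2% of the cells without and 92.0% with tail suspension. Trbc2 had one in 90.4% and 89.1%. Trbc2 was seen in only 0.681% and 0.795% of neutrophils, which should lack it (median 2900 and 4146 UMIs per neutrophil, against 5592 and 4714 per alpha-beta T cell). Icos, a costimulatory receptor of activated T cells, was seen in 87.0% and 74.5% of the cells and in 0.220% and 0.298% of neutrophils. Of 7 gamma-delta T cell genes 5 and 4 had a UMI, summing to 29.6 and 16.4 CPM (5.45 and 9.11 CPM in kept cells with no Cd3 UMI). This sum includes Trdc and Tcrg-C1, which the rule itself limits. The segments Trdv4 and Tcrg-V6 were at 0 in both libraries, and 53 and 31 cells had 1 UMI of Trdc or Tcrg-C1, which the rule allows. The median sum of Cd3 UMIs was 17 and 9, and the median of Trac was 4 and 3. Just inside the limits were 4 and 14 cells with exactly 2 Cd3 UMIs and 43 and 123 with exactly 1 Trac UMI. Just outside were 3 and 13 cells with 1 Cd3 UMI, and 314 and 373 cells with no Trac UMI that met the other limits, so cells with Cd3 RNA but no detected Trac RNA were not counted.

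Transcripts of other cell types were present in part of these cells. At least 20 UMIs of Prg4, Dcn, S100a8, S100a9, Lyz2, Apoe, Hbb-bs or Cd74, or at least 2 UMIs of B cell, macrophage or neutrophil receptor genes, were found in 78 cells (20.7%) without and 78 (17.3%) with tail suspension. These limits were chosen after the values were seen, and values for the remaining 298 and 373 cells are given beside several of the lists and genes. The neutrophil list (6 genes) summed to 5564 and 5060 CPM (UMIs of a gene per 1000000 UMIs of the cells), with all 6 genes detected in both libraries. The macrophage list (8 genes) summed to 4881 and 2252 CPM and the fibroblast or tendon list (8 genes) to 508 and 6297 CPM, again with no gene at 0. Prg4, the lubricant lubricin, stood at 86.1 and 3744 CPM. It was detected in 448 of 451 cells of the tail suspension library at a median of 6 UMIs, although 66.1% of its UMIs lay in 5 cells. Without the 78 cells in each library Prg4 was still at 90.9 and 1219 CPM. The part of this free or carried-over RNA in the differences below was not tested beyond the values without those cells. The libraries shared 47 barcode sequences, none of them between alpha-beta T cells of both libraries. A doublet caller marked 0 of 10947 kept cells in the non-tail suspension library, so it did not work there, and doublets were left in.

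Alpha-beta T cells were 3.43% of kept cells without tail suspension (3.10 to 3.79) and 3.11% with it (2.84 to 3.41), and these intervals overlap. Among kept cells with a UMI of Ptprc, the CD45 gene of blood-derived cells, they were 4.32% (3.88 to 4.79) and 6.51% (5.93 to 7.13). Among cells with at least 2 Cd3 UMIs they were 42.0% (38.7 to 45.3) and 35.9% (33.2 to 38.6). The direction therefore changed with the denominator: the share of blood-derived cells was higher in the tail suspension library, and the share of Cd3 cells was lower. Foxp3 T cells, the regulatory cells the rule leaves out, were 74 and 223 cells, and gamma-delta T cells were 57 and 39.

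Among cells with a coreceptor UMI, CD4 cells outnumbered CD8 cells in both libraries. Cd4 without Cd8a or Cd8b1 was found in 198 of 376 cells (52.7%, 47.5 to 57.8) and in 185 of 451 (41.0%, 36.4 to 45.7). Cd8a or Cd8b1 without Cd4 was found in 46 cells (12.2%, 9.10 to 16) and in 72 (16%, 12.7 to 19.7), both Cd4 and Cd8 in 5 and 7, and neither in 127 and 187. CD8 cells thus made up 18.9% (14.1 to 24.3) and 28.0% (22.6 to 33.9) of the CD4 and CD8 cells, intervals that overlap. With each cell thinned to 1000 UMIs, which no cell fell short of, these shares were 33% (23.3 to 43.8) and 41.7% (32.1 to 51.9). Cells without coreceptor UMIs were 33.8% and 41.5% before and 76.6% and 76.9% after this thinning, so the size of this class moves with depth. Cd4 had a UMI in 0.286% and 0.0994% of neutrophils. Summed over all cells, Cd4 was at 192 and 139 CPM, Cd8a at 116 and 62.8 CPM, and Cd8b1 at 121 and 90.8 CPM.

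Levels are compared as log2 of the CPM with tail suspension divided by the CPM without it, so a negative ratio means less RNA in the tail suspension library. Over the 8092 genes with at least 50 UMIs in the alpha-beta T cells the median ratio was -0.07. A gene is called higher or lower at a 2-fold ratio: 531 genes (6.56%) were 2-fold higher and 413 (5.1%) were 2-fold lower. In the cells without other types' transcripts 6702 genes were measured, of which 4.06% were 2-fold higher and 5% were 2-fold lower. In kept cells with no Cd3 UMI, a comparison set below, 16102 genes were measured, with a median ratio of 0.16. Of these 1800 were 2-fold higher and 1132 were 2-fold lower. These values are the background for the counts and medians of each gene list in the same cells. The intervals of single genes in pooled counts are narrow because they hold no spread between animals.

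Effector cytokine genes were among the strongest differences, nearly all with less RNA in the tail suspension library. Of 19 measured secreted cytokine and chemokine genes, 9 were 2-fold lower and 0 were 2-fold higher, with a median ratio of -0.98 (-0.88 without the cells carrying other types' transcripts). Kept cells with no Cd3 UMI had a similar median of -1.01, against 0.16 over all their measured genes. There 10 of 19 measured genes of the list were 2-fold lower and 2 higher. Ifng, which encodes interferon gamma (ENSMUSG00000055170, GRCm38 chromosome 10, 118441046 to 118445892), was at 272 CPM without and 24.6 CPM with tail suspension, a ratio of -3.47 (-3.84 to -3.12). It was found in 46 of 376 and 18 of 451 cells, and 5 cells held 75.3% and 76.4% of its UMIs. With those 5 cells left out in each library Ifng was at 69.1 and 5.86 CPM, a ratio of -3.56. Most Ifng RNA thus lay in few cells, but the ratio was as large without them and fewer cells were positive in the tail suspension library. Only 0.132% and 0.0994% of neutrophils had an Ifng UMI.

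Il17a encodes the interleukin-17A cytokine of type 17 cells (ENSMUSG00000025929, chromosome 1, 20730905 to 20734496). It was at 363 and 60.4 CPM, a ratio of -2.59 (-2.83 to -2.36), and had a UMI in 99 cells (26.3%, 22 to 31.1) and in 41 (9.09%, 6.60 to 12.1). With cells thinned to 1000 UMIs the shares were 11.7% and 3.77%. Il17f, its close relative, was at 184 and 122 CPM (ratio -0.59, -0.80 to -0.39), in 21% and 13.7% of cells, and in 8.24% and 7.32% after thinning. Il22 ran the other way, at 44.8 and 79.2 CPM (0.82, 0.50 to 1.16), in 19 and 35 cells, with 79.7% and 57.3% of its UMIs in 5 cells. With those 5 cells left out in each library Il22 was at 9.25 and 34.2 CPM, a ratio of 1.89. The members of the interleukin-17 and interleukin-22 group therefore did not move together. Il17a was much lower and Il17f somewhat lower. Il22 was higher, under 2-fold over all the cells and past it without its 5 highest cells. Cells with Il17a or Il17f numbered 142 (37.8%) and 84 (18.6%). Of these, 7 and 2 also had an Ifng UMI, against 39 of 234 and 16 of 367 of the other cells.

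**Figure D1:**
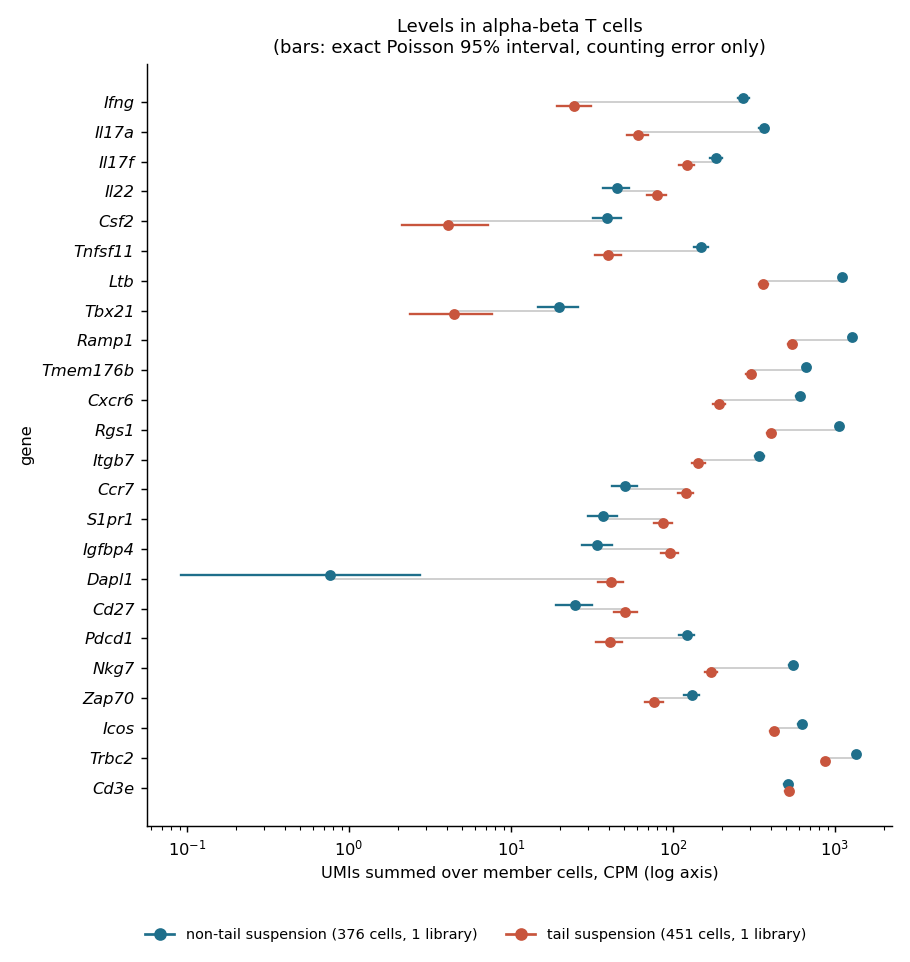
Summed UMIs of 24 genes in the alpha-beta T cells, in CPM on a log axis, for the non-tail suspension library (376 cells) and the tail suspension library (451 cells), with exact Poisson 95% intervals as bars. Ifng, Il17a, Csf2, Tnfsf11 and Cxcr6 lie further left with tail suspension, Ccr7, S1pr1, Igfbp4 and Dapl1 lie further right, and Cd3e is at nearly the same level (512 and 519 CPM).

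Other cytokines of T cells with known roles in joints and bone were lower too. Tnfsf11, which encodes the osteoclast factor RANKL, was at 150 and 39.9 CPM (-1.91, -2.22 to -1.61), in 105 cells (27.9%) and 54 (12%). Among cells with Il17a or Il17f it was present in 53 of 142 and 22 of 84, and among the others in 52 of 234 and 32 of 367, so in both libraries it was seen more often in the cells with interleukin-17 RNA. Fibroblasts also express Tnfsf11, with a UMI in 29.4% and 8.51% of them, whereas 1.56% and 1.49% of neutrophils had one. Csf2, the GM-CSF gene, was at 39.1 and 4.10 CPM (-3.25, -4.25 to -2.39), in 31 and 6 cells. Ltb, the lymphotoxin beta subunit that nearly all of these cells carried without tail suspension, was at 1106 and 360 CPM (-1.62, -1.72 to -1.52), in 90.4% and 69.6% of cells. Il10, an anti-inflammatory cytokine, was at 32.6 and 6.83 CPM, with 87.2% of its UMIs in 5 cells of the non-tail suspension library. Tnf stayed under 2-fold at 102 and 68.9 CPM (-0.57). Il4 had 0 and 8 UMIs. A count of 0 among 2636362 UMIs allows up to 3 UMIs, so its absence without tail suspension cannot be told from a very low level.

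**Figure D2:**
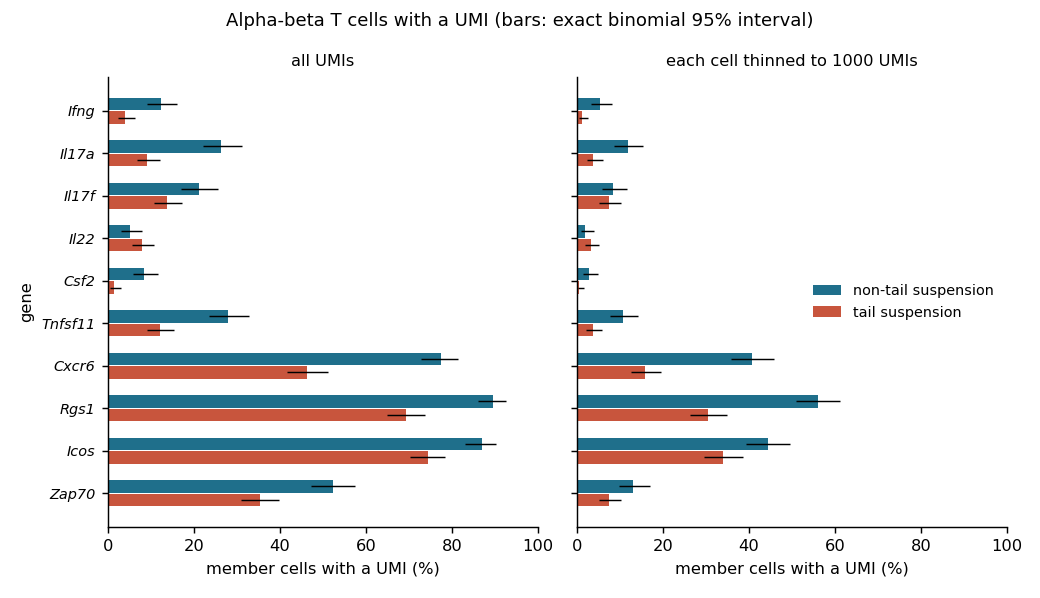
Percent of alpha-beta T cells with at least 1 UMI of each of 10 genes, with all UMIs (left) and with each cell thinned to 1000 UMIs (right). Error bars are exact binomial 95% intervals. Shares with Ifng, Il17a, Tnfsf11, Cxcr6 and Rgs1 are lower in the tail suspension library in both panels.

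The type 17 list, which includes these cytokines, was lower in large part. Of its 18 measured genes 7 were 2-fold lower (Il17a and 6 that encode no cytokine) and 0 were 2-fold higher, with a median of -0.73, against 5.1% and 6.56% of all measured genes. In kept cells with no Cd3 UMI, taken as a comparison, the 15 measured genes of the list had a median of 0.45. Ramp1, a subunit of the receptor for the neuropeptide CGRP, was at 1265 and 539 CPM (-1.23) and in 85.4% and 69.8% of cells. The membrane protein genes Tmem176a and Tmem176b, both marker genes of type 17 cells, were at 709 and 303 CPM (-1.22) and at 665 and 301 CPM (-1.14). Both were found together with Il17a or Il17f: either had a UMI in 136 of 142 and 73 of 84 cells with these cytokines, and in 176 of 234 and 235 of 367 of the rest. Il1r1 and Il23r, receptors for cytokines that sustain type 17 cells, were at 121 and 59.0 CPM (-1.03) and at 29.97 and 15.02 CPM. Ltb4r1, the leukotriene B4 receptor, was at 137 and 57.7 CPM (-1.24). The lineage factors Rora and Maf differed less. Rora was at 932 and 668 CPM (-0.48), and Maf was higher at 232 and 292 CPM (0.33).

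Type 1 genes had a median ratio of -0.89 over 13 measured members, 5 of them 2-fold lower. Kept cells with no Cd3 UMI had a lower median still, -1.39, with 8 of 14 measured genes 2-fold lower. Tbx21, the type 1 lineage factor T-bet, was at 19.7 and 4.44 CPM (-2.15, -3.15 to -1.26), in 10.1% and 2.44% of cells. Ifngr1, a chain of the interferon gamma receptor, was at 704 and 362 CPM (-0.96). In both libraries most of the few cells with Ifng also had Cd8a or Cd8b1: 25 of 46 (54.3%, 39.0 to 69.1) and 12 of 18 (66.7%, 41.0 to 86.7). Among cells without Ifng these coreceptors were seen in 7.88% and 15.5%. Type 2 genes showed little: their 6 measured members had a median of 0.06 and none was 2-fold different, with Gata3, the type 2 lineage factor, at 49.7 and 67.9 CPM (0.45). This median changed sign in 4 of 14 other settings. Follicular helper genes had a median of 0.54, and of 0.11 without the cells carrying other types' transcripts. Of 7 measured 2 were 2-fold higher, Slamf6 at 31.1 and 84.0 CPM (1.43) and Il6ra at 15.9 and 41.0 CPM (1.36).

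Several genes of tissue-resident T cells were lower in the tail suspension library, while the list of such genes as a whole lay near the median of all genes. Cxcr6, a chemokine receptor of T cells that stay in tissue (ENSMUSG00000048521, chromosome 9, 123806475 to 123811760), was at 607 and 192 CPM (-1.66, -1.80 to -1.52). It was in 77.4% of cells (72.8 to 81.5) without and in 46.3% (41.7 to 51.1) with tail suspension, and in 40.7% and 15.7% after thinning. Among neutrophils 0.264% and 0.199% had a Cxcr6 UMI. Rgs1, a brake on chemokine receptor signals, was at 1061 and 404 CPM (-1.39). The regulators Prdm1 and Id2 were at 43.2 and 16 CPM (-1.43) and at 906 and 488 CPM (-0.89), and Cd69, which blocks exit from tissue, at 528 and 301 CPM (-0.81). In the memory and residency list 3 of 21 measured members were 2-fold lower, 1 was 2-fold higher, and the median was -0.18. Cd44 was level at 407 and 407 CPM, Itgae, the CD103 integrin chain, was at 48.2 and 38.2 CPM (-0.33), and Crip1 was higher at 3551 and 9050 CPM (1.35). Crip1 was also higher in kept cells with no Cd3 UMI, with a ratio of 2.18 there.

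Of 15 genes of naive and circulating T cells, 5 were 2-fold higher in the tail suspension library, 0 were 2-fold lower, and the median was 0.88 (0.69 in the cells without other types' transcripts). Ccr7, the lymph node homing receptor, was at 50.4 and 120 CPM (1.25, 0.96 to 1.55), in 39 and 96 cells. S1pr1, which lets T cells leave tissue, was at 36.8 and 87.0 CPM (1.24) and Igfbp4 at 34.1 and 95.2 CPM (1.48). Ly6c1 was at 22.4 and 119 CPM (2.42). It was also higher in gamma-delta T cells (2.36), Foxp3 T cells (1.55) and neutrophils (1.21), so this was not particular to alpha-beta T cells. Dapl1 had 2 UMIs in 1 cell without and 121 UMIs in 24 cells with tail suspension, a ratio of 5.77 (3.88 to 8.83), and 21 of those 24 cells also had Cd8a or Cd8b1. The largest ratio of the list thus belonged to a gene of a few CD8 cells. Lef1, a factor of naive cells, differed less at 42.1 and 70.0 CPM (0.73). Tcf7 was at 81.6 and 96.9 CPM (0.25), and Il7r, the receptor of the survival cytokine interleukin-7, at 662 and 603 CPM (-0.14). In kept cells with no Cd3 UMI the 15 genes had a median of 0.06.

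Integrin and homing genes were mostly lower, with 2 of 15 measured genes 2-fold lower and a median of -0.53. Itgb7, the beta chain of the gut and tissue homing integrins, was at 340 and 143 CPM (-1.25) and Itgav at 182 and 77.5 CPM (-1.23). Itgb2 and Itgal, the chains of LFA-1, were at 259 and 139 CPM (-0.90) and at 196 and 114 CPM (-0.78).

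Costimulation and checkpoint genes included receptors of recently stimulated cells. Of 19 measured genes, 5 were 2-fold lower and 1 was 2-fold higher, with a median of -0.47. Pdcd1, the inhibitory receptor PD-1, was at 121 and 40.6 CPM (-1.58, -1.90 to -1.27) and in 32.2% and 14.6% of cells. Lag3 was at 84.2 and 32.4 CPM (-1.38) and Ctla4 at 545 and 267 CPM (-1.03), but in thinned cells their ratios were under 2-fold. Icos was at 624 and 420 CPM (-0.57) and Cd28 at 386 and 282 CPM (-0.45). The gene 2-fold higher was Cd27, a receptor kept by naive and early memory cells, at 24.7 and 50.8 CPM (1.04, 0.61 to 1.49), also under 2-fold when cells were thinned.

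Cytotoxic genes had a median of -0.75 over 17 measured members, 5 of them 2-fold lower and 1 higher. The median was lower, at -1.50, in kept cells with no Cd3 UMI, where 14 of 18 measured genes were 2-fold lower. Nkg7, a granule protein, was at 550 and 172 CPM (-1.67, -1.82 to -1.53), although nearly the same share of cells had a UMI (27.4% and 27.1%). Prf1, which encodes perforin, was at 31.1 and 8.53 CPM (-1.87). Gzma was at 181 and 40.9 CPM (-2.14), but 89.9% and 88.3% of its UMIs lay in 5 cells, 15 and 16 cells had any, and with at least 3 Cd3 and 2 Trac UMIs per cell the ratio was 0.04. Gzmb did not follow it, at 85.7 and 94.2 CPM (0.14, -0.12 to 0.40). Ccl5, a chemokine of effector cells, was at 404 and 310 CPM (-0.38) and in 16.2% and 19.1% of cells.

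Genes of the T cell receptor pathway were lower by less than 2-fold as a group. None of the 30 measured genes was 2-fold higher or lower, and 26 had ratios below 0. The median was -0.46, or -0.27 in the cells without other types' transcripts. This list was lower too in kept cells with no Cd3 UMI, at a median of -0.59, with 8 of 28 measured genes 2-fold lower. Zap70, the gene mutated in SKG mice (ENSMUSG00000026117, chromosome 1, 36761798 to 36782818), was at 130 and 76.4 CPM (-0.77, -1.02 to -0.52), in 52.4% and 35.3% of cells and in 13% and 7.32% after thinning. The adaptors Lat and Skap1 were at 474 and 257 CPM (-0.88) and at 321 and 161 CPM, and the kinase Lck at 355 and 191 CPM (-0.90). Ptprc, a phosphatase that primes Lck, was higher, at 707 and 836 CPM (0.24). The receptor chains used by the rule were at 512 and 519 CPM for Cd3e, 1607 and 604 CPM for Cd3g and 735 and 530 CPM for Trac. Trbc2 was at 1352 and 871 CPM (-0.63) and Trbc1 at 766 and 459 CPM (-0.74), 2 nearly identical genes between which reads may be split uncertainly.

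MHC class I and peptide loading genes, which put peptides on the cell surface for CD8 cells, formed the list whose median lay furthest from that of all measured genes. All 17 measured genes had ratios below 0, 12 were 2-fold lower and the median was -1.27, or -1.22 in the cells without other types' transcripts. H2-D1, a classical class I heavy chain (ENSMUSG00000073411, chromosome 17, 35262730 to 35267499), was at 8904 and 3157 CPM (-1.50, -1.53 to -1.46) with a median of 52 and 16 UMIs per cell. H2-K1, another classical heavy chain (ENSMUSG00000061232, chromosome 17, 33996017 to 34000347), was at 2855 and 1183 CPM (-1.27), with medians of 17 and 6. The non-classical H2-T23 and H2-Q7 were at 601 and 148 CPM (-2.02) and at 368 and 88.7 CPM (-2.05). Class I genes have near-identical copies, and the SKG strain derives from BALB/c mice while the reference genome is from another strain, so the division of reads among H2 genes is uncertain in both libraries alike. Genes without such copies went the same way: the peptide transporters Tap1 and Tap2 were at 164 and 55.6 CPM (-1.56) and at 159 and 53.6 CPM (-1.57). The immunoproteasome subunits Psmb9 and Psmb8 were at 333 and 118 CPM (-1.50) and at 722 and 306 CPM (-1.24). B2m, the shared light chain, was at 3736 and 2461 CPM (-0.60), and Psme1, a proteasome activator, was nearest to level at 319 and 288 CPM (-0.15).

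These class I differences were not particular to alpha-beta T cells. The list's median was -1.22 in Foxp3 T cells, -1.74 in gamma-delta T cells, -2.50 in neutrophils, -1.85 in fibroblasts and -2.04 in all kept cells with no Cd3 UMI. H2-D1 had a ratio of -1.35 in Foxp3 cells and -1.91 in the cells with no Cd3 UMI. No test of the difference between cell types can be made with 1 library per group.

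**Figure D3:**
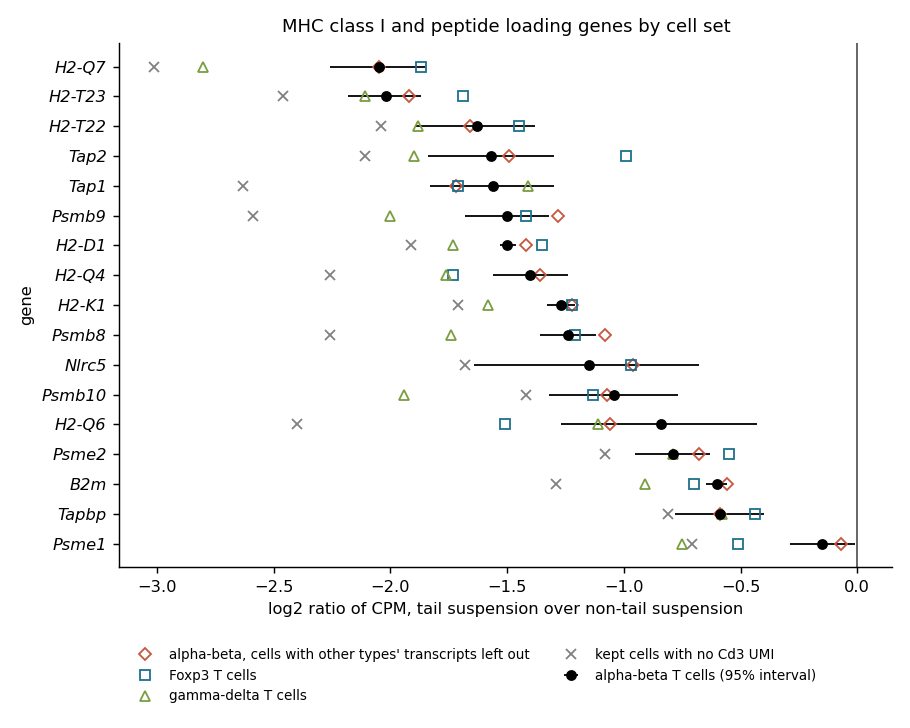
Log2 of the CPM with tail suspension divided by that without, for 17 MHC class I and peptide loading genes in alpha-beta T cells (black, with counting interval), in those without other types' transcripts, in Foxp3 and gamma-delta T cells, and in kept cells with no Cd3 UMI. Points of a set are drawn where the gene had at least 30 UMIs in it. The black points lie between -2.05 (H2-Q7) and -0.15 (Psme1), and most of the points for cells with no Cd3 UMI lie further left.

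Interferon-inducible genes, switched on by interferons, were lower in parallel. Of 32 measured genes 18 were 2-fold lower and 0 were 2-fold higher, with a median of -1.07, and of -0.83 in the cells without other types' transcripts, where 10 of 26 were 2-fold lower. Gbp2, a guanylate-binding GTPase of cell defence, was at 104 and 20.1 CPM (-2.37, -2.80 to -1.96), in 26.9% and 9.09% of cells, and at 67.8 and 22.6 CPM without the cells carrying other types' transcripts. Igtp, an immunity-related GTPase, was at 104 and 30.7 CPM (-1.76) and Isg15, a ubiquitin-like modifier, at 99.0 and 22.5 CPM (-2.14). Without the cells carrying other types' transcripts Isg15 had a ratio of -1.06 and Irf7, an interferon regulatory factor, was under 2-fold at -0.84, compared with -1.46 in all the cells. Ly6a, a surface protein of activated T cells, was at 1177 and 399 CPM (-1.56) in the alpha-beta T cells and had a ratio of 0.04 in the kept cells with no Cd3 UMI. Irf1, which like Irf7 encodes an interferon regulatory factor, was at 103 and 68.9 CPM (-0.58). Ifi27l2a went the other way at 274 and 347 CPM (0.34). The list's median was -1.09 in Foxp3 T cells and -1.72 in kept cells with no Cd3 UMI.

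The promoters of 5 members of the MHC class I and interferon-inducible lists are shown, picked by name and not at random. Each is given as the 250 bases before the gene's start in the RefSeq annotation of GRCm38.p6, read 5′ to 3′ on the gene's strand. Capitals mark matches on either strand to 2 motifs: the interferon-stimulated response element, searched as GAAA, any 2 bases and GAAA, and the gamma-activated site, searched as TTCNNNGAA. Gbp2 lies at chr3:142620413-142620662 on the plus strand and Igtp at chr11:58199306-58199555 on the plus strand. Isg15 lies at chr4:156200819-156201068 on the minus strand, H2-T23 at chr17:36032702-36032951 on the minus strand and Psmb8 at chr17:34197945-34198194 on the plus strand.
Gbp2: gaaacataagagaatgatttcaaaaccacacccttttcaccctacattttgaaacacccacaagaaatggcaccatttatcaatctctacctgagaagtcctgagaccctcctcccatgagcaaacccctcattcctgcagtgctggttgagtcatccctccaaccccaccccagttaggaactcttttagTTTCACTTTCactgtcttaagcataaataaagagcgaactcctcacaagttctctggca
Igtp: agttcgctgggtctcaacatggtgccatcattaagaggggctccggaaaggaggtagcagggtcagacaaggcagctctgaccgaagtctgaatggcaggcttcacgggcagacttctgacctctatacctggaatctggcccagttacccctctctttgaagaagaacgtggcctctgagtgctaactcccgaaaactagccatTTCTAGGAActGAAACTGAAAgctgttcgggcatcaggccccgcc
Isg15: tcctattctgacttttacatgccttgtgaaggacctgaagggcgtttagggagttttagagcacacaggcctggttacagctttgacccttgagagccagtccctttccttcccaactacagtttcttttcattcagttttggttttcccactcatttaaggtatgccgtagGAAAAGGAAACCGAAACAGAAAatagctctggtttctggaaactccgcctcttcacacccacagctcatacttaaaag
H2-T23: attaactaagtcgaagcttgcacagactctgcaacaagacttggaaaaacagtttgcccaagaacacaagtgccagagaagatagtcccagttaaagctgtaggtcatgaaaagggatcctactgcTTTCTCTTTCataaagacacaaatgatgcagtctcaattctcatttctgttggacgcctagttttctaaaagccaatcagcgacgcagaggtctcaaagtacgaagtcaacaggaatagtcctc
Psmb8: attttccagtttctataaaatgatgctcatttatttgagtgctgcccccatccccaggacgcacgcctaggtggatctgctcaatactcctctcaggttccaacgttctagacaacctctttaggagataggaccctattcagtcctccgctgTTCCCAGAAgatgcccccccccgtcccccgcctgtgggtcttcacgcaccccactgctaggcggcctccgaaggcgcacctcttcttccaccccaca

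Gbp2 and H2-T23 each hold 1 response element match, Isg15 holds 3 that overlap, Igtp holds 1 beside 1 gamma-activated site match, and Psmb8 holds 1 gamma-activated site match only. Over all 27025 promoter windows of this length 821 (3.04%) held the response element and 1940 (7.18%) the gamma-activated site. Of 28 interferon-inducible genes with a window, 18 (64.3%) held the response element and 8 (28.6%) the gamma-activated site. That list was chosen as genes switched on by interferons, so its share is a property of the list and not a result of these data. Of 15 MHC class I list genes with a window, 3 (20%) held the response element (B2m, H2-T22 and H2-T23) and 1 the gamma-activated site. The type 17 list had 0 of 15 windows with the response element and the naive list 0 of 12. A match describes the letters in the window and is not a measured site of binding, and a link between matches and ratios was not tested.

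Stress and signalling lists were mixed. Of 28 immediate-early and NF-kB response genes, 4 were 2-fold lower and 1 was 2-fold higher, with a median of -0.55. Jund, an AP-1 subunit, was at 1922 and 639 CPM (-1.59), Junb at 2459 and 1135 CPM (-1.11) and Nfkbia, the inhibitor that NF-kB induces, at 1551 and 718 CPM (-1.11). Fos and Egr1, which also respond to tissue digestion, were higher at 438 and 540 CPM (0.30) and at 158 and 266 CPM (0.75). Jund was lower in the cells with no Cd3 UMI too, with a ratio of -1.11.

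Of 16 measured glucocorticoid-responsive genes 5 were 2-fold higher and 2 were 2-fold lower, with a median of 0.29, or 0.52 without the cells carrying other types' transcripts. The metallothioneins Mt1 and Mt2, which bind zinc and copper, had the largest ratios of the list, at 249 and 1928 CPM (2.95) and at 62.2 and 676 CPM (3.44). A UMI of Mt1 or Mt2 was present in 67.6% and 99.3% of the alpha-beta T cells and in 65.1% and 99.3% of neutrophils. The shares were thus alike in both cell types, and the part of free RNA in them was not tested. In cells with no Cd3 UMI Mt1 had a ratio of 1.41 and Mt2 of 1.47. Klf9 and Errfi1 were at 22.4 and 97.6 CPM (2.12) and at 34.5 and 111 CPM (1.69), while Tsc22d3, the leucine zipper gene GILZ, was level at 259 and 241 CPM (-0.10). Fkbp5, a chaperone of the glucocorticoid receptor, was at 31.1 and 46.4 CPM (0.58) and Per1 at 86.1 and 41.0 CPM (-1.07). The members of this list therefore did not share a direction.

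Glycolysis and hypoxia genes had a median of -0.73 over 18 measured members, 3 of them 2-fold lower and 1 higher, and 6 of 16 were 2-fold lower without the cells carrying other types' transcripts. Pkm and Gapdh were at 771 and 405 CPM (-0.93) and at 1886 and 1184 CPM (-0.67), and Hk2, a hexokinase, was the higher one at 37.9 and 114 CPM (1.59). Actin and migration genes had a median of -0.38, with Actg1 at 3128 and 1624 CPM (-0.95), and cytokine receptor genes one of -0.36, with Il2rb, the receptor chain shared by interleukin-2 and interleukin-15, at 466 and 281 CPM (-0.73). Heat shock genes had a median of 0.41 (0.18 without the cells carrying other types' transcripts), with Hsp90ab1 at 1145 and 1360 CPM (0.25) and Hspa8 at 1340 and 886 CPM (-0.60). Cell cycle genes had a median of -0.35 over 22 members (-0.58 without those cells), with 1 of them 2-fold lower: Mki67, the proliferation antigen, at 144 and 68.9 CPM (-1.06), under 2-fold without its 5 cells with the most UMIs.

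**Figure D4:**
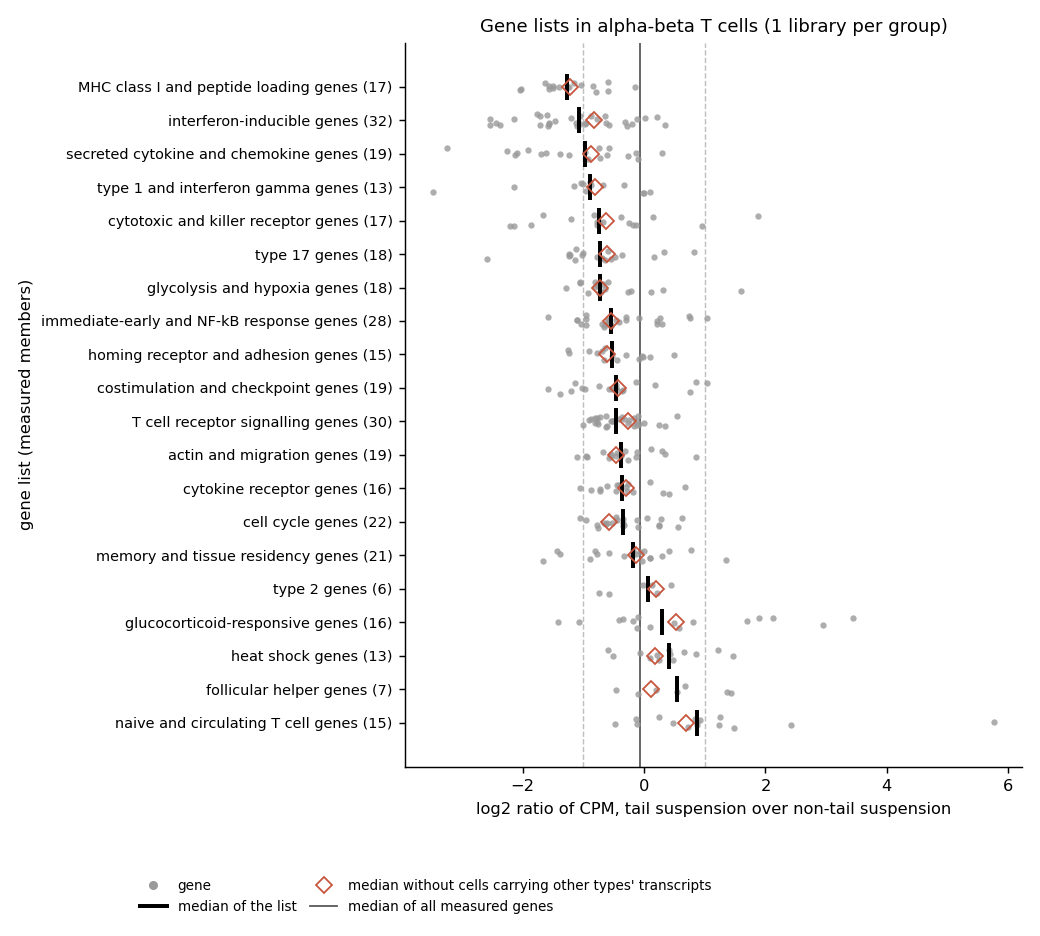
Log2 of the CPM with tail suspension divided by that without, for each measured gene of 20 lists (grey points) with the list's median (black bar) and its median without the cells carrying other types' transcripts (open diamond). The solid line is the median of all 8092 measured genes (-0.07) and dashed lines mark 2-fold. The lists run from MHC class I (-1.27) to naive T cell genes (0.88).

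The genes with the largest ratios in either direction, 12 each by a rule given with the methods, were in large part carried by few cells. In 10 of the 12 higher and 6 of the 12 lower genes, more than 50% of the UMIs in the library with more RNA lay in 5 cells. The higher genes were Clu, Cilp, Scd1, Camp, Ngp, Tppp3, Sparcl1, Fabp4, Inhba, Snhg9, Serpine2 and Ecrg4, which include neutrophil granule (Camp, Ngp) and matrix or fat cell genes (Cilp, Fabp4). The lower genes were Mmp9, Ifng, Acod1, Hdc, Asprv1, Cxcl10, Upp1, Acp5, Ccrl2, Il17a, Ctsk and Gbp2, among them osteoclast genes (Mmp9, Acp5, Ctsk). Without the cells carrying other types' transcripts 4 of the higher and 3 of the lower genes were under 2-fold. Ctsk, the protease cathepsin K, went from a ratio of -2.53 to 0.48, and 96.2% of its UMIs in the non-tail suspension library lay in 5 cells. Snhg9, Il17a and Ifng, at ratios of 3.08, -2.41 and -3.32 in those cells, kept theirs.

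**Figure D5:**
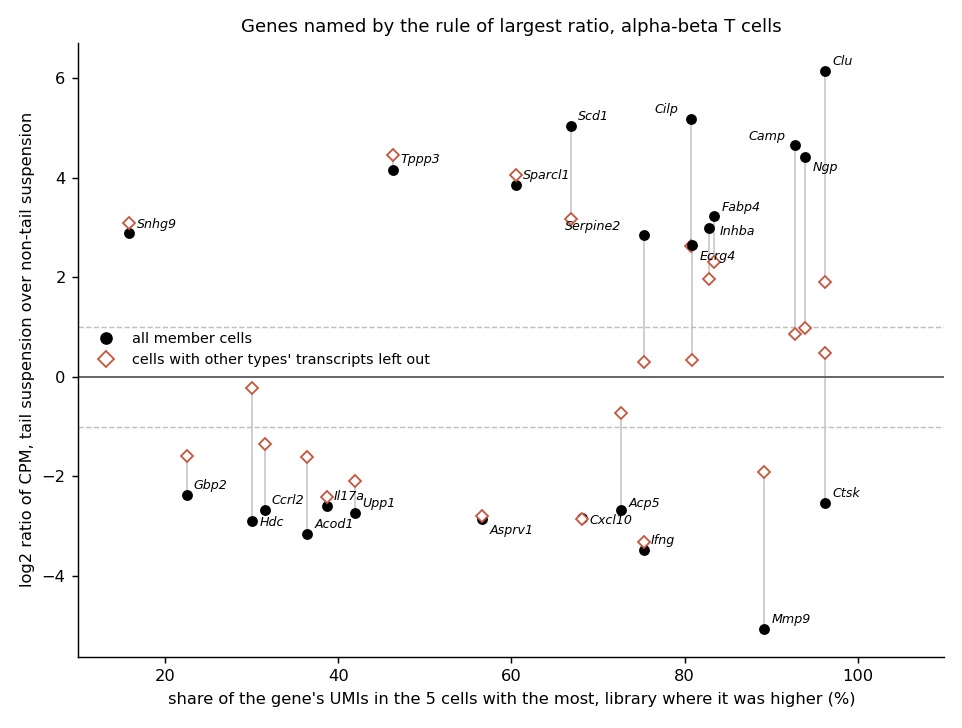
For each of the 24 genes named by the rule, the share of its UMIs in the 5 cells with the most (x axis, %, in the library with more RNA) against its log2 ratio (with over without tail suspension) in all alpha-beta T cells (black) and without the cells carrying other types' transcripts (open diamonds). Clu and Camp, with 96.2% and 92.8% of UMIs in 5 cells, move towards 0, whereas Snhg9 (15.9%) and Il17a (38.7%) hardly move.

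The same rule in the cells without other types' transcripts named 24 genes, 5 of them shared (Cxcl10, Fabp4, Ifng, Il17a and Snhg9). The lower genes there were Cxcl9, Ifng, Serpina3g, Cxcl10, Il17a, Slc17a6, H2-Q7, Rgs16, Tnfsf11, H2-T23, Traf4 and Nrgn. Cxcl9 and Cxcl10, chemokines that interferon gamma induces and that attract CXCR3 cells, were at 62.8 and 2.05 CPM and at 55.7 and 7.69 CPM. In all the alpha-beta T cells of the non-tail suspension library, 83.7% of Cxcl9 UMIs and 68.2% of Cxcl10 UMIs lay in 5 cells. Without the 5 highest cells of each library Cxcl9 was at 7.80 and 0 CPM. Rgs16, a brake on chemokine receptor signals, was at 92.6 and 22.6 CPM and Traf4, an adaptor of TNF receptors, at 72.2 and 19.5 CPM. The higher genes were Snhg9, Fabp4, Tle4, Myb, Snhg6, Snhg3, Spata7, Smim4, Smim27, Epb41l4aos, Atp5k and Eif3j1. Tle4, a corepressor, was at 18.7 and 86.1 CPM, and Myb, a factor of progenitor and memory cells, at 13.8 and 62.6 CPM.

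Both CD4 and CD8 cells showed most of these differences. In the CD4 cells 7513 genes were measured, of which 7.93% were 2-fold higher and 6.14% 2-fold lower, and in the CD8 cells 4303, of which 6.93% and 11.9% were. Class I genes had a median of -1.20 in CD4 cells (12 of 17 genes 2-fold lower) and -1.36 in CD8 cells (11 of 15). Interferon-inducible genes had medians of -1.08 and -1.63, and naive-cell genes of 0.78 and 0.75. Cxcr6 was at 584 and 203 CPM in CD4 cells (-1.53) and at 692 and 137 CPM in CD8 cells (-2.33, -2.71 to -1.97). Il17a was mainly a CD4 signal, at 494 and 97.0 CPM in CD4 cells and 83.1 and 33.1 CPM in CD8 cells. Ifng was mainly a CD8 signal, at 1319 and 104 CPM in CD8 cells (-3.66) and at 105 and 1.59 CPM in CD4 cells. Dapl1 was at 5.04 and 185 CPM in CD8 cells and at 0 and 0.795 CPM in CD4 cells.

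The gates had medians of opposite sign for proliferation, a difference that was not tested. Cell cycle genes had a median of 0.43 in CD4 cells, with 5 of 22 genes 2-fold higher, and of -1.23 in CD8 cells, with 13 of 21 genes 2-fold lower. Mki67 was at 100 and 75.5 CPM in CD4 cells and at 257 and 96.0 CPM in CD8 cells, and Top2a at 122 and 134 CPM and at 254 and 113 CPM. These CD8 values come from 46 and 72 cells. The proliferating-like cluster described below held only 11 CD8 cells and 15 CD4 cells over both libraries, so few cells may carry these medians. By the same rule the 5 lowest genes of CD8 cells were Cxcl9, Ifng, Ccl3, Gbp2b and Ifitm1 and the 5 highest Apod, Myb, Dapl1, Spata7 and Cstdc5. Those of CD4 cells were Ifng, Ccrl2, Basp1, Ms4a7 and Rgs16, and Scd1, Sparcl1, Sod3, Htra4 and Ngp. Both gates keep the cells carrying other types' transcripts. Over all alpha-beta T cells Basp1 went from -1.79 to -0.69 without those cells, and Ngp from 4.42 to 0.91 without its 5 highest cells. Ms4a7 was under 2-fold there without cells with B cell, macrophage or neutrophil UMIs, and also after thinning. The other genes named for CD4 cells stayed past 2-fold over all alpha-beta T cells in every setting. The settings were not run within the CD4 or CD8 gate, so how these genes hold up in CD4 cells was not tested.

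Beside the other T cells of the same tissue, the lists differed in part. The naive-cell list had a median of 0.88 in alpha-beta T cells, and of -0.41 in both Foxp3 T cells (12 genes measured) and gamma-delta T cells (11 genes). The type 17 list had medians of -0.73, -0.43 and -0.87 in alpha-beta, Foxp3 and gamma-delta T cells, the cytokine list of -0.98, -0.63 and 0.24, and the T cell receptor pathway list of -0.46, -0.62 and -0.80. Cxcr6 was lower in all 3, with ratios of -1.66, -1.59 and -2.32. Il22 had 1 and 23 UMIs in Foxp3 T cells and 3 and 18 in gamma-delta T cells, too few for a firm ratio. Gamma-delta values rest on 57 and 39 cells, and the difference between T cell types was not tested.

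Clustering of the 827 cells without integration gave 11 clusters that in large part parted by library, so cluster and library cannot be told apart for many of them and their sizes are not read as cell composition. Cluster 2, with 7 type 17 markers among its leading genes, held 130 cells without and 13 with tail suspension. Cluster 5, with S1pr1 and Tcf7 among its leading genes, held 56 and 0 cells, and cluster 6, led by Dapl1 with Ccr7, held 21 and 63. Cluster 9 held 9 and 168 cells. The rule that gave the names below, at least 3 markers of a class, made clusters 5, 6 and 9 naive T-like. That name was set aside after the values were seen. The leading genes of cluster 9 were S1pr1 beside the fibroblast genes Prg4, Igfbp5 and Apod and the type 17 gene Ccr6. The cytotoxic T-like cluster 0 held 27 and 47 cells and the proliferating-like cluster 7 held 22 and 18. In the neutrophil-like cluster 4, 35 of 35 cells had other types' transcripts, as did 38 of 39 cells of cluster 8, which was led by Cd74, Mmp9 and H2-Aa and stayed unnamed, and 20 of 22 of the fibroblast or tendon-like cluster 10. Clusters 1 and 3 also stayed unnamed. Within each of the 10 clusters with cells of both libraries H2-D1 was lower with tail suspension, with ratios from -2.36 to -0.79, and so was Jund, from -1.81 to -0.67. Mt1 was higher in each, from 0.96 to 6.22. Genes that mark T cell states were mixed within clusters. Ramp1 was below 0 in 10 of 10 clusters, from -1.69 to -0.23, and Cxcr6 in 9 of 10. Il17a was at -0.07 (-0.56 to 0.40) and -0.37 (-0.94 to 0.15) in clusters 1 and 2, which held most of its UMIs. It was at -2.14 (-2.96 to -1.32) in cluster 3 and at 0.78 (-0.51 to 2.15) in cluster 7. In cluster 0, which held most Ifng UMIs, Ifng was at 2350 and 234.6 CPM (-3.32), and in cluster 2 at 28.19 and 36.7 CPM. Clusters 1, 4 and 7 had Ifng UMIs only without tail suspension (137, 3 and 86). Clusters 3 and 9 had them only with it (1 and 4). Ccr7 and Lef1 were above 0 in 6 of 10 clusters.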

How the data were processed

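Single-cell 3′ RNA libraries of the SKG mouse enthesis, 1 per group, were analysed from the UMI count matrices that the authors deposited, which hold whole, unnormalized counts per gene and cell barcode. Cell Ranger 5.0.1 and the genome GRCm38 are named in the submitters' processing notes. The members, gene lists and comparisons were chosen with earlier results of these data known. Of 26975 barcodes 25430 were kept (at least 300 genes, at most 20% mitochondrial UMIs). Counts of the cells chosen were summed per library and divided by their total to give CPM. Ratios are log2 of tail suspension over non-tail suspension with conditional binomial intervals, shares have Clopper-Pearson intervals, and levels have Poisson intervals. With 1 library per group no test was made. A gene counted as measured with 50 UMIs over both libraries (30 in a CD4 or CD8 gate), and a count of 0 was set to 3 UMIs in ratios. Neutrophils, used as a comparison, were kept cells with no Cd3 UMI, at least 20 UMIs of S100a8 and S100a9 together, and a UMI of Csf3r or Cxcr2.

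Genes were named from the list ends, hallmark genes, and the 12 largest ratios in each direction (5 in a gate). The last needed 100 UMIs, 50 CPM and 5% of cells in the library with more RNA, a CPM of at least 0.25 times that of cells with no Cd3 UMI, and the same sign after median-of-ratios scaling and thinning. Ribosomal, mitochondrial, haemoglobin, predicted and receptor segment genes and markers of other cell types were left out. Genes such as Tmem176b that the text names beyond these are list members. Doublets were called with Scrublet in scanpy 1.11.5 and left in. Clusters came from 1500 variable genes, 20 components, 15 neighbours and Leiden resolution 0.8. Gene positions are from GENCODE M21, which matched 32158 of 32285 gene IDs. Tested on simulated data, 95.7% of intervals held the true ratio, 100% of 200 genes changed by a log2 of 2 passed 2-fold, and 0.164% of unchanged genes did. The simulated counts were Poisson draws, the model the intervals assume, without clumping in few cells or spread between animals. These figures therefore say nothing about either in the real data. Other filters, rules for T cells, scalings and thinning were tried as alternatives. Results of some list members are not reported here.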

Additional observations from a re-analysis of the deposited data

How the results depend on the processing

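All 20 gene list medians but that of type 2 genes kept their sign in each of 14 settings, and of 118 genes past 2-fold among 186 examined, 113 kept their sign and 83 stayed past 2-fold in every setting. The share of kept cells (non-tail suspension, then tail suspension) was 5.16% and 3.59% at a minimum of 1000 genes, 3.03% and 2.22% with at least 3 Cd3 and 2 Trac UMIs, 2.74% and 2.75% without cells with B cell, macrophage or neutrophil UMIs, and 2.72% and 2.58% without all cells carrying other types' transcripts (added after seeing the data). CD4 cells were 15.7% and 13.3% after thinning and 30.3% and 22.8% when 2 UMIs were needed. CD8 cells among both gates were 33% and 41.7%, and 26.0% and 35.6%. Genes 2-fold higher numbered 272 without cells carrying other types' transcripts, 907 after thinning, and 1022 or 165 when a measured gene needed 20 or 200 UMIs. Genes 2-fold lower numbered 873 after thinning, 193 at 200 UMIs and 271 with abundant gene families left out of CPM, which shifts the median of all genes by 0.16. Ctsk turned to 1.61 at 10% mitochondrial UMIs, 1.62 under the stricter Cd3 and Trac rule, 1.80 without cells with B cell, macrophage or neutrophil UMIs, 0.48 without all cells with other types' transcripts and 1.08 without its 5 highest cells. Cstdc5 turned to -0.07 without its 5 highest cells, Gzma to 0.04 under the stricter rule, Gzmk to 0.74 after thinning, and Myc to -0.06 without cells with other types' transcripts and -0.07 after thinning. The cause was not tested. No paired analysis was possible because each group has 1 library. Genes of few UMIs are limited by depth, and nothing here separates the treatment from the library.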

Other observations

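Variable gene segments of the T cell receptor were sparse in these 3′ libraries. A UMI of any Trbv gene was found in 37 of 376 alpha-beta T cells (9.84%) without and in 59 of 451 (13.1%) with tail suspension, and of any Trav gene in 53 (14.1%) and 68 (15.1%). Among cells with a single Trbv gene, Trbv2 was seen in 9 of 35 (25.7%, 12.5 to 43.3) and 4 of 55 (7.27%, 2.02 to 17.6). Trbv12-2 was seen in 5 of 35 (14.3%, 4.81 to 30.3) and 13 of 55 (23.6%, 13.2 to 37.0). These intervals overlap, and no order of segment use can be read from them.

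Snhg3, a host gene of small nucleolar RNAs, was at 32.5 and 136 CPM in the alpha-beta T cells without other types' transcripts (ratio 2.07), and in kept cells with no Cd3 UMI its ratio was 2.31. Atp5k, an ATP synthase subunit, had ratios of 1.63 and 1.54 in these cell sets, and Eif3j1, a translation initiation factor subunit, of 1.61 and 1.74. These 3 genes were chosen from those the rule names after their values were seen.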
